A study of Mus musculus with 6 samples.

Results

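Chemokines and their receptors were examined in whole kidneys of mice with a deletion, directed to the nephron lineage, of Tfrc (TfR1), which encodes the transferrin receptor, the main route of iron import into many cells. The genes were every symbol in the count tables that begins with Ccl, Cxcl, Ccr or Cxcr followed by a digit. This rule found 54 of 24422 genes, of which 37 encode ligands and 17 encode receptors. Fold changes were examined for the 28 genes with 60 or more reads summed over the 6 libraries, 20 ligands and 8 receptors, of which 27 are named below. The kidneys were taken at postnatal day 13 from C57BL/6 mice whose diet held 220 ppm iron. The 3 Control kidneys carry the genotype wild type in the labels. The 3 TfR1KO kidneys carried floxed alleles of the receptor gene together with a Six2-driven Cre recombinase (Tfr1f/f;SixCre). By these labels the Cre transgene, the floxed alleles and the deletion cannot be told apart. In other experiments the study also calls floxed littermates WT, so the Control kidneys may have shared the floxed alleles. Six2 Cre acts in the progenitors that give rise to nephron tubules and not in leukocytes or stroma, and the study describes tubule cells that had escaped deletion at this age.

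Chemokines are small secreted proteins that direct the movement of leukocytes through receptors coupled to G proteins. CXC chemokines with an ELR motif attract neutrophils through Cxcr2, the interferon-inducible CXC chemokines attract T cells through Cxcr3, and inflammatory CC chemokines attract monocytes, macrophages and other leukocytes through Ccr1, Ccr2, Ccr3 and related receptors. A further set is made constitutively and places cells in tissues, among them Cxcl12, which acts through Cxcr4 and takes part in kidney vascular development. Tubule epithelium, stroma and resident macrophages are all known sources of chemokines in the kidney.

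The promoters of 4 ligands that were higher in TfR1KO kidneys are shown because their DNA holds letters that match the kappaB consensus, the element bound by NF-kappaB. Each run is the 250 bases before the RefSeq transcript start, 5′ to 3′ on the gene's strand, in build GRCm38.p6. Capitals mark the kappaB matches, found on either strand with overlapping matches joined, and in Cxcl10 also a first stretch that matches the core of the interferon-stimulated response element, GAAANNGAAA. The windows are Cxcl1, chr5:90890995-90891244 (+), Cxcl2, chr5:90903649-90903898 (+), Cxcl10, chr5:92348890-92349139 (−), and Ccl9, chr11:83578637-83578886 (−).
Cxcl1: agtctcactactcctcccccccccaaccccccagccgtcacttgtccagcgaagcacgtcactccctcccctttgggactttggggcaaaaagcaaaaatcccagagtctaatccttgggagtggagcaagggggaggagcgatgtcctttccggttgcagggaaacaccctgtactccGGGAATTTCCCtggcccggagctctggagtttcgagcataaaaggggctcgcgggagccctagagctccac
Cxcl2: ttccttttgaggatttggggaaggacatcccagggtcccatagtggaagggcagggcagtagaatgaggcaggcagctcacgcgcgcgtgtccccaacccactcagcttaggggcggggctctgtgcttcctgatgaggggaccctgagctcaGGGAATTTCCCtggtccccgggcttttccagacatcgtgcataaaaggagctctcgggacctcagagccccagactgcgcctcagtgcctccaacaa
Cxcl10: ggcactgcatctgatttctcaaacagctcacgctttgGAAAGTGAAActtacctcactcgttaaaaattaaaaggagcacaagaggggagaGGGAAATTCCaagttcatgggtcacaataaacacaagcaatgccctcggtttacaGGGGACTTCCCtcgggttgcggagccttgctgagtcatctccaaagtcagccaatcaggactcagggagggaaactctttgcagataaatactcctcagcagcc
Ccl9: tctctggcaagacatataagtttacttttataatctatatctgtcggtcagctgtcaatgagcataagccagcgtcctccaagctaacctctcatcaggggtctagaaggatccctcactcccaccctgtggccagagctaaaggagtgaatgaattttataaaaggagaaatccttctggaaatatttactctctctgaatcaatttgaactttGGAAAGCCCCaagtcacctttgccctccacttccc

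The first base of the kappaB match lay 71 bases before the start in Cxcl1 and 97 bases before it in Cxcl2, and both held the same letters. In Cxcl10 the kappaB matches began 159 and 104 bases before the start, and the interferon element began 213 bases before it. In Ccl9 the match began 35 bases before the start. Of the 54 chemokine genes 38 had a promoter in the table, and 10 of these (26.3%) held a kappaB match, beside 8.23% of all 27025 genes in the table. Among the 7 genes that passed the threshold in the comparison below, 6 had a promoter in the table and 5 of them held a match, the exception being Cxcl13. The interferon core was found in 3.46% of all genes and in 3 of the 38 chemokine genes, Cxcl10, Cxcl14 and Ccl19. These matches describe letters and are not shown binding sites.

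The libraries held 16591156 to 22898008 counted reads. Kidney epithelium markers summed to 224349, 235643 and 119049 normalized counts (counts divided by each library's size factor) in Control replicates 1 to 3. The TfR1KO replicates 1 to 3 summed to 110759, 138493 and 98333, so the sum of Control replicate 3 lay within their range. Aqp2 weighed on these sums, with 2409 in Control replicate 3 and 17805, 50719 and 23564 in TfR1KO libraries. For the 5 markers that passed the threshold below as lower, Control replicate 3 lay above every TfR1KO library. The gap was wide for Umod (22552 against at most 4012) and narrow for Slc12a1 (19534 against at most 19046). Markers that did not pass lay within or below the TfR1KO range in that library. Tfrc itself had 5534, 6485 and 3667 normalized counts in Control kidneys and 6976, 4045 and 5898 in TfR1KO kidneys (log2 fold change 0.11, SE 0.29, DESeq2 adjusted p = 0.853), so its gene-level count does not check the labels. A library in each group stood apart for the chemokine genes. Of the 20 ligands, 16 had their highest Control value in Control replicate 3, and 15 had their highest TfR1KO value in TfR1KO replicate 1. With Cxcl12, Cxcl14 and Cxcl16 set aside, the other 17 ligands summed to 476, 471 and 907 normalized counts in the Control libraries and to 1687, 970 and 838 in the TfR1KO libraries. Values without these libraries are therefore given beside the results.

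The comparison of TfR1KO with Control kidneys asked which chemokine transcripts differ when iron import through the receptor is targeted in the nephron lineage. A gene was called higher or lower at a DESeq2 adjusted p under 0.05, over all genes, with at least a 2-fold change. Among the 20 ligands 5 were higher (Cxcl1, Cxcl2, Cxcl10, Cxcl17 and Ccl9), 1 was lower (Cxcl13) and 14 were not called, among them Ccl7, which had no p-value. Among the 8 receptors 1 was higher (Ccr1), 0 were lower and 7 were not called. At an unadjusted DESeq2 p under 0.05 the ligands gave 6 higher and 2 lower and the receptors 1 higher and 0 lower. The share of all genes at an unadjusted p was not computed. Such counts, here and for the lists below, therefore have no background. For the calls the background was 4.41% of 16509 genes higher and 4.46% lower, and among the genes with 60 or more reads it was 4.61% and 4.69%. The corresponding shares were 25% of the ligands higher and 5.0% lower, and 12.5% of the receptors higher. A 60-read minimum is reached more easily by a gene that is high in one group, so these shares describe the genes and are not a test of them. The median log2 fold change was 0.75 for ligands and 0.11 for receptors, beside 0.007 for all genes tested. edgeR's quasi-likelihood test called fewer genes, 2.48% of 15308 higher and 2.31% lower, and of the 7 genes above it called Cxcl1, Cxcl17 and Cxcl13. limma-voom called 2.38% higher and 2.43% lower, and of the 7 it called Ccl9, Cxcl17 and Cxcl13.

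**Figure D1:**
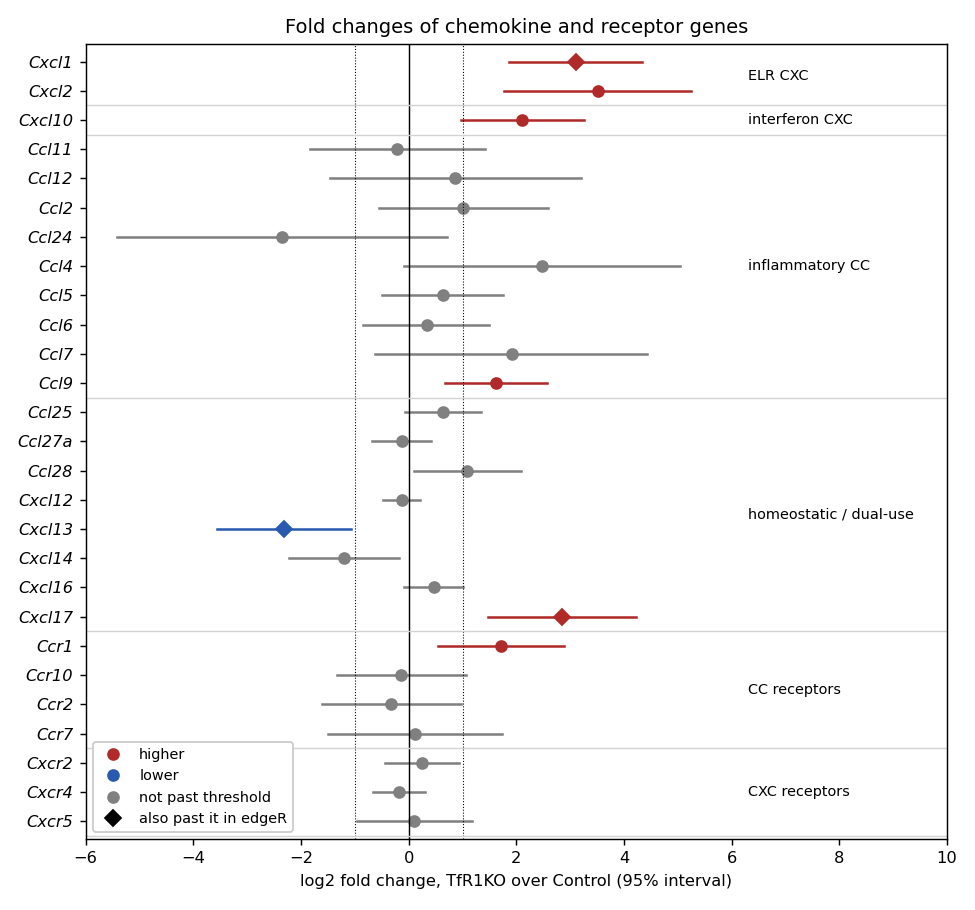
Log2 fold change of TfR1KO over Control kidneys (horizontal axis) with its 95% interval for 27 genes with 60 or more reads, grouped by role. Red marks the 6 genes called higher, blue the 1 called lower and grey the others by DESeq2, diamonds mark calls that edgeR also made, and dotted lines mark a 2-fold change.

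Leaving out TfR1KO replicate 1 moved the ligand median to -0.13, with 4 ligands higher and 3 lower. Leaving out Control replicate 3 moved it to 1.21, with 5 ligands higher and 0 lower. With both libraries left out the median was 0.54, with Cxcl1, Cxcl2, Cxcl17 and Ccl9 higher and Cxcl14 lower, and Ccr1 was again the 1 receptor that was higher. Over all genes these fits called, in the same order, 821, 759 and 884 higher and 1146, 642 and 1025 lower. The fit with every library called 728 higher and 736 lower. The ranges of the groups did not overlap for 8 of the 20 ligands, 7 higher and 1 lower in TfR1KO kidneys, and for 1 of the 8 receptors. Among all genes tested 33.7% had no overlap, 16.9% higher and 16.9% lower.

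Cxcl1 and Cxcl2, the ELR chemokines that attract neutrophils, had the largest fold changes of the genes called. Cxcl1 had 19.8, 12.7 and 7.53 normalized counts in Control replicates 1 to 3 and 214, 79.3 and 52.0 in TfR1KO replicates 1 to 3. The groups did not overlap, and TfR1KO replicate 1 was far above the other TfR1KO libraries. The difference was 8.55-fold (log2 fold change 3.10, SE 0.63, DESeq2 adjusted p = 3.05e-05, edgeR adjusted p = 0.0375). It was called with any 1 library left out (log2 fold change 2.28 to 3.49) and also with both libraries that stood apart left out (2.00, adjusted p = 0.0119). In whole-kidney RNA a difference in the number of cells that make a transcript cannot be told apart from a difference in transcript per cell, here and for every gene below.

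Cxcl2, a close relative of Cxcl1 and its neighbour on chromosome 5, had 2.47, 2.73 and 10.8 normalized counts in Control kidneys and 96.5, 70.4 and 11.4 in TfR1KO kidneys. TfR1KO replicate 3 lay just above Control replicate 3, and the other TfR1KO libraries were far higher. The log2 fold change was 3.51 (SE 0.89, DESeq2 adjusted p = 0.00135), and edgeR did not call it (adjusted p = 0.0656). It was called with any 1 library left out (2.96 to 4.51). The remaining ELR ligands had fewer reads, 52 for Cxcl5, 21 for Cxcl15 and 11 for Cxcl3. Although below the read minimum, Cxcl5 passed the DESeq2 threshold (adjusted p = 0.00795), with 3, 1 and 1 reads in Control libraries and 17, 7 and 23 in TfR1KO libraries; it was singled out after its values were seen. The Cxcl5 call was lost without Control replicate 2 (adjusted p = 0.0754), without TfR1KO replicate 3 (adjusted p = 0.109) or with both libraries that stood apart left out (adjusted p = 0.0938), and edgeR did not test it.

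Cxcr2, the receptor of the ELR ligands on neutrophils, was not called. It had 59.4, 56.4 and 54.9 normalized counts in Control kidneys and 46.7, 85.7 and 70.9 in TfR1KO kidneys, with overlapping groups (log2 fold change 0.25, 95% interval -0.44 to 0.93, DESeq2 adjusted p = 0.699). Cxcr1 had 1 read. Neutrophil markers moved in the same direction as the ligands, with 4 of 8 tested markers higher by DESeq2 (S100a9, S100a8, Mmp8 and Retnlg), 0 lower and 0 called by edgeR (5 higher at its unadjusted p under 0.05). Their list summed to 122, 187 and 427 normalized counts in Control and 351, 1140 and 747 in TfR1KO libraries. The order of libraries differed, since TfR1KO replicate 1 was the highest for Cxcl1 and Cxcl2 and the lowest of its group for this sum. Within the list Csf3r (100, 93.4 and 64.3 in TfR1KO replicates 1 to 3) and Ly6g (5.97, 1.28 and 5.68) were highest in that library. Every other marker of the list was lowest in it among the TfR1KO libraries. Ly6g, a defining neutrophil marker, had 15 reads in all. The part of these cells in the ligand result was not tested.

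**Figure D2:**
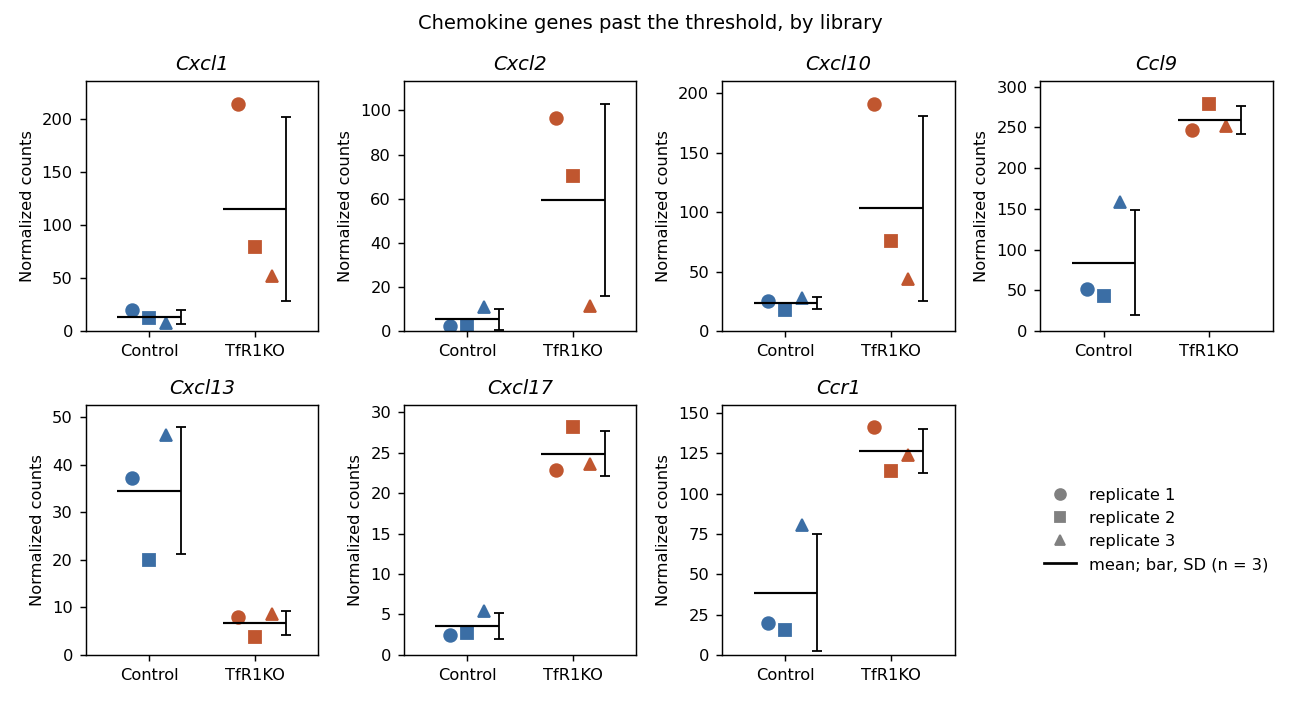
Normalized counts (vertical axes, from 0) of the 7 chemokine genes called by DESeq2, with 3 Control libraries in blue and 3 TfR1KO libraries in orange. Symbols give the replicate number, horizontal lines the group mean and error bars the SD; the groups do not overlap in any panel, and the gap is narrowest for Cxcl2 (10.8 against 11.4).

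Cxcl10, an interferon-inducible ligand of Cxcr3, was higher in TfR1KO kidneys. It had 25.6, 18.2 and 28.0 normalized counts in Control and 191, 75.5 and 43.5 in TfR1KO libraries, so the groups did not overlap and TfR1KO replicate 1 was again the highest. The difference was 4.33-fold (log2 fold change 2.11, SE 0.58, DESeq2 adjusted p = 0.00397), and edgeR did not call it (adjusted p = 0.0743). Without TfR1KO replicate 1 the log2 fold change was 1.31 and the call was lost (adjusted p = 0.0549). The transcription factor Irf7, which drives interferon responses, stood at 3313 normalized counts in that library beside 357 and 176 in the other TfR1KO libraries and 107 to 152 in Control libraries. Interferon gamma (Ifng) had 0 reads in every library. The other Cxcr3 ligands, Cxcl9 with 41 reads and Cxcl11 with 38, and Cxcr3 itself with 19, were below the read minimum.

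Of the 9 inflammatory CC ligands with enough reads, Ccl9 was higher and the other 8 were not called. Ccl9, a macrophage product that binds Ccr1, had 51.9, 42.7 and 158 normalized counts in Control kidneys and 247, 279 and 252 in TfR1KO kidneys. All TfR1KO libraries lay close together and above Control replicate 3, which stood well above the other Control libraries. The log2 fold change was 1.63 (SE 0.48, DESeq2 adjusted p = 0.00863, edgeR adjusted p = 0.0957). The call was lost without Control replicate 1 (1.36, adjusted p = 0.0878), Control replicate 2 (1.3, adjusted p = 0.0685) or TfR1KO replicate 3 (1.65, adjusted p = 0.0528). Without Control replicate 3 the log2 fold change was 2.45 (adjusted p = 4.31e-16).

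Ccr1, the receptor of Ccl9 and of several other inflammatory CC chemokines on monocytes, macrophages and neutrophils, showed nearly the same pattern. It had 19.8, 15.5 and 80.7 normalized counts in Control and 141, 114 and 124 in TfR1KO libraries. The groups did not overlap, and Control replicate 3 lay between the other Control libraries and the TfR1KO libraries. The log2 fold change was 1.72 (SE 0.60, DESeq2 adjusted p = 0.0313, edgeR adjusted p = 0.134). The call held in 1 of 6 fits with 1 library left out, that without Control replicate 3 (2.84, adjusted p = 6.02e-11). It was lost without Control replicate 1 (1.39, adjusted p = 0.184), Control replicate 2 (1.33, adjusted p = 0.159), TfR1KO replicate 1 (1.63, adjusted p = 0.0878), TfR1KO replicate 2 (1.79, adjusted p = 0.0782) or TfR1KO replicate 3 (1.73, adjusted p = 0.122). With the other size factors tried it was also lost (1.65 and 1.59, adjusted p = 0.0527 and 0.0734).

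Monocyte and macrophage markers moved as a list in the same direction as Ccl9 and Ccr1, though not every marker did so in every library. Of 15 tested markers 10 were higher by DESeq2, 7 of them also by edgeR, and 0 were lower, with Lyz2, C1qb, C1qa and C1qc the most abundant of those called. The list summed to 4191, 4282 and 6886 normalized counts in Control and 13182, 12199 and 11666 in TfR1KO libraries, so Control replicate 3 was the highest Control library here too. Cd14 (1644) and Ly6c1 (3184) were highest in TfR1KO replicate 2 and weighed on its sum. The defining markers Csf1r (log2 fold change 0.36, adjusted p = 0.199) and Adgre1 (1.04, adjusted p = 0.146) did not pass. In TfR1KO replicate 2 both lay within their Control ranges, Csf1r at 1140 (Control 983 to 1153) and Adgre1 at 118 (Control 110 to 223). The pan-leukocyte marker Ptprc had 178, 154 and 309 normalized counts in Control and 431, 356 and 334 in TfR1KO libraries (log2 fold change 0.81, DESeq2 adjusted p = 0.0627). The part of cell number in the Ccl9 and Ccr1 results was not tested.

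**Figure D3:**
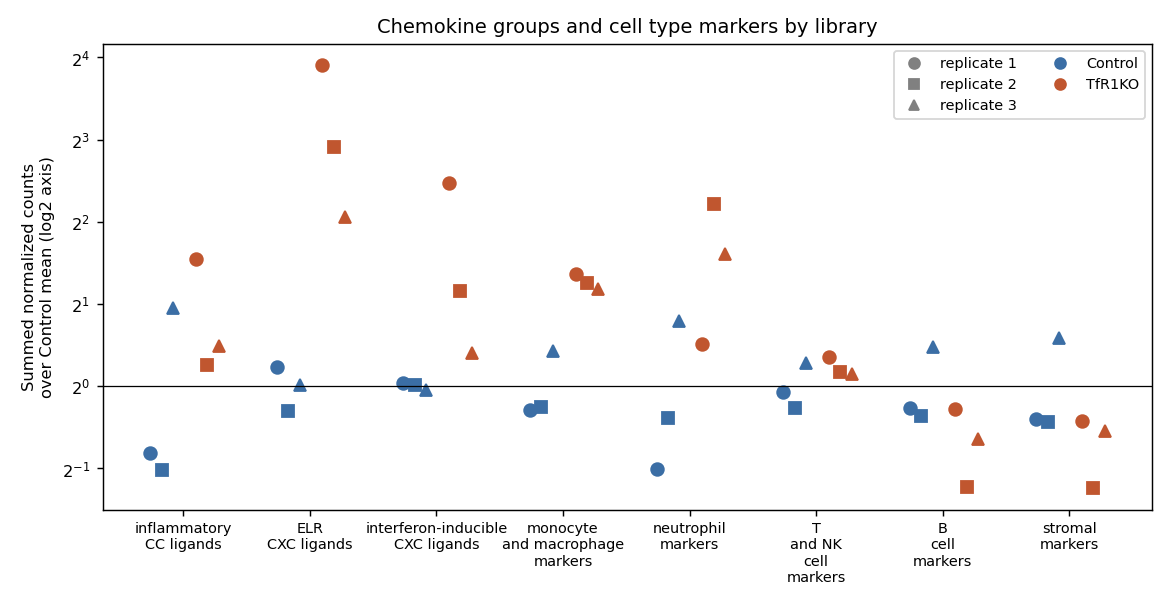
Normalized counts summed over each gene list, divided by the mean of the 3 Control libraries (vertical axis, log2 scale), for 3 chemokine groups and 5 cell type marker lists, with Control libraries in blue and TfR1KO libraries in orange and 1 symbol per replicate. The TfR1KO libraries lie above all Control libraries for the ELR and interferon-inducible ligands and the macrophage markers, and overlap them for the inflammatory CC ligands and the neutrophil markers.

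The monocyte attractants that act through Ccr2 were high in a single TfR1KO library. Ccl2 had a log2 fold change of 1.01 (DESeq2 adjusted p = 0.435), with 9.07, 12.7 and 35.5 normalized counts in Control and 78.6, 16.6 and 18.9 in TfR1KO libraries. Ccl12 had 99.4 normalized counts in TfR1KO replicate 1 beside 1.28 and 6.62 in the other TfR1KO libraries and 10.7 to 37.7 in Control libraries (log2 fold change 0.86, adjusted p = 0.69). Ccl7 had 122 in that library beside 1.28 and 5.68, and 3.64 to 23.7 in Control libraries. Its log2 fold change was 1.91 with no p-value, because the outlier filter removed it, and an adjusted p of 0.345 without that filter. Without TfR1KO replicate 1 the log2 fold changes of all 3 ligands were negative, -0.09 for Ccl2, -2.26 for Ccl12 and -1.68 for Ccl7, and none passed.

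Ccr2, the receptor of these ligands on monocytes, was also highest in Control replicate 3 and in TfR1KO replicate 1 within the groups. It had 46.2, 42.7 and 100 normalized counts in Control and 95.5, 15.4 and 38.8 in TfR1KO libraries (log2 fold change -0.33, adjusted p = 0.797). Ccl4 had 48.7 normalized counts in TfR1KO replicate 1 and 1.82 to 5.38 in the other 5 libraries (2.48, adjusted p = 0.2). Ccl5 was within a narrow range, at most 12.9 in Control and 14.1 to 20.9 in TfR1KO libraries, without overlap (0.63, adjusted p = 0.504).

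The remaining inflammatory CC ligands overlapped between groups. Ccl6, a further Ccr1 ligand, had a log2 fold change of 0.33 (95% interval -0.85 to 1.5). The eosinophil attractants Ccl11 and Ccl24 had log2 fold changes of -0.21 and -2.35 (adjusted p = 0.902 and 0.335). Ccl24 had 67.8 normalized counts in Control replicate 3 and 15.9 in TfR1KO replicate 1, and was listed at 0 in the other 2 TfR1KO libraries. The other Control libraries had 10.7 and 3.64. It was called lower when TfR1KO replicate 1 was left out (adjusted p = 0.00304), and without Control replicate 3 its log2 fold change was -0.44 (adjusted p = 0.922).

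**Figure D4:**
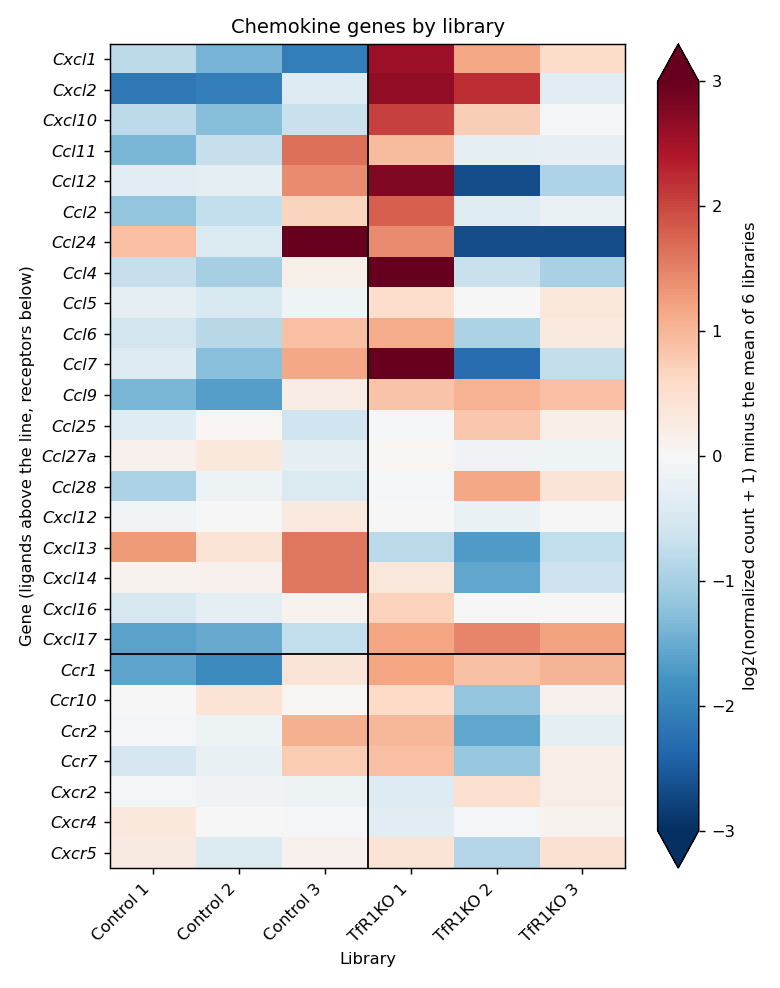
Each of 27 genes with 60 or more reads (rows) in each of the 6 libraries (columns), as log2(normalized count + 1) minus the gene's mean over the 6 libraries, with red above and blue below that mean. The column of TfR1KO replicate 1 is red for most inflammatory CC ligands, and the column of Control replicate 3 is redder than the other Control columns for most CC genes. Cxcl1, Ccl9, Cxcl17 and Ccr1 are red in all 3 TfR1KO columns.

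The most abundant chemokines in the kidney were constitutive ones. Per kilobase of exon the mean over all libraries was 847 normalized counts for Cxcl14, 706 for Cxcl12 and 302 for Cxcl16, and at most 74.5 (Ccl6) for any other ligand with an exon length. In group means Cxcl14 stood above Cxcl12 in Control kidneys (1180 and 739) and below it in TfR1KO kidneys (514 and 673). Cxcl14 varied widely between libraries and was not called, as given below, so this order does not hold for each library. Together these 3 genes held 83.8% to 94.3% of the normalized counts of the 20 ligands in each library. The share was 92.8% to 94.3% in Control libraries and 83.8% to 89.8% in TfR1KO libraries.

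Cxcl12, the ligand of Cxcr4, had 5390, 5762 and 6981 normalized counts in Control and 5762, 5020 and 5728 in TfR1KO libraries. The groups overlapped and the interval was narrow (log2 fold change -0.13, 95% interval -0.47 to 0.20, DESeq2 adjusted p = 0.66). Cxcr4 was the most abundant receptor per kilobase of exon in both groups, with means of 101 normalized counts in Control and 89.6 in TfR1KO kidneys. Cxcr2 came next in Control (18.7, Ccr1 13.7) and Ccr1 in TfR1KO kidneys (44.6, Cxcr2 22.3). Cxcr4 had 214, 169 and 166 normalized counts in Control and 137, 166 and 183 in TfR1KO libraries (log2 fold change -0.18, 95% interval -0.66 to 0.30). Ackr3, a scavenging receptor for Cxcl12 whose symbol is outside the rule, had a log2 fold change of -0.87 (adjusted p = 0.0315), which is under 2-fold.

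Cxcl14, a chemokine of epithelia and stroma, had 1342, 1367 and 3747 normalized counts in Control and 1571, 425 and 814 in TfR1KO libraries. TfR1KO replicate 1 lay above 2 of the Control libraries, and Control replicate 3 stood above the rest. The log2 fold change was -1.20 (SE 0.52) and did not pass (DESeq2 adjusted p = 0.104). Without TfR1KO replicate 1 it was -1.80 and was called lower (adjusted p = 0.00378), without Control replicate 3 it was -0.54 (adjusted p = 0.504), and without both it was -1.13 and was called (adjusted p = 0.00383). Stromal markers were also highest in Control replicate 3, with list sums of 77174, 75382 and 152617 normalized counts in Control and 75607, 42991 and 69645 in TfR1KO libraries, and 1 of 8 called lower (Col3a1). The part of stroma in the Cxcl14 values was not tested.

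Cxcl16, a membrane-bound ligand of Cxcr6 that also takes up oxidized lipoprotein, had 628, 728 and 945 normalized counts in Control and 1416, 887 and 875 in TfR1KO libraries. The groups overlapped (log2 fold change 0.47, 95% interval -0.08 to 1.01, adjusted p = 0.269). Cxcr6 had 50 reads.

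**Figure D5:**
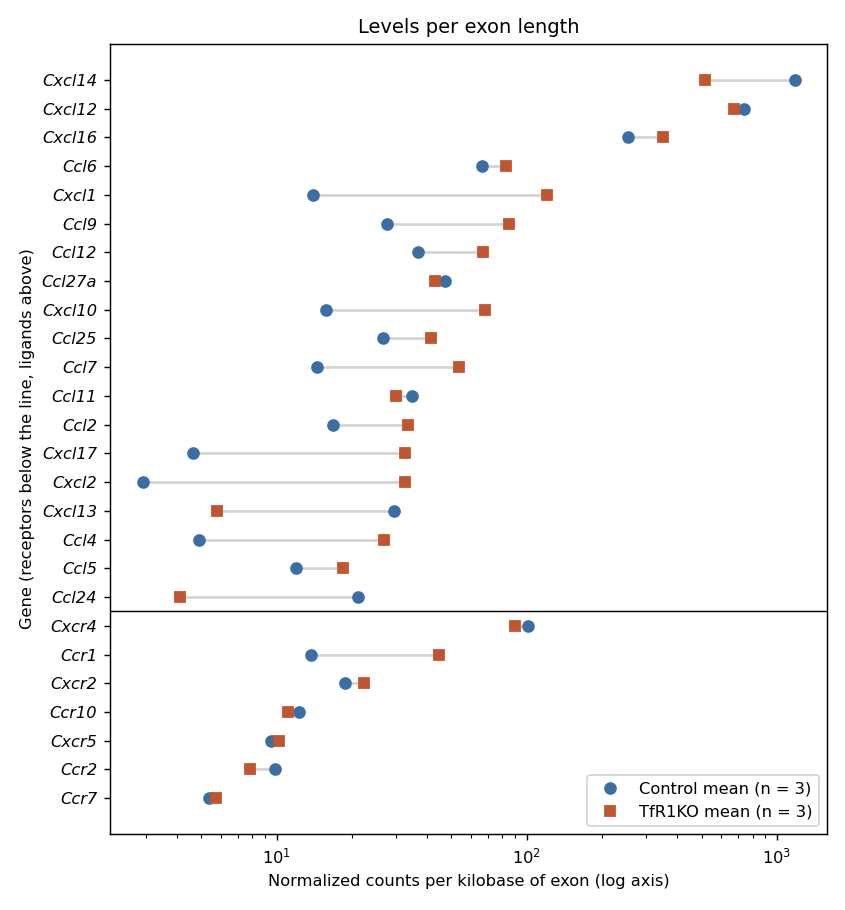
Mean normalized counts per kilobase of exon (horizontal log axis) in Control (blue circles) and TfR1KO kidneys (orange squares) for 26 genes with an exon length, ligands above the line and receptors below. Cxcl14, Cxcl12 and Cxcl16 lie above all other ligands in both groups, and the widest gaps between groups belong to ligands of lower level.

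Cxcl17, a chemokine of mucosal epithelia, was higher in TfR1KO kidneys and similar in all 3 of them. It had 2.47, 2.73 and 5.38 normalized counts in Control and 22.9, 28.1 and 23.6 in TfR1KO libraries. The TfR1KO libraries lay within a small range far above every Control library. The difference was 7.20-fold (log2 fold change 2.85, SE 0.70, DESeq2 adjusted p = 0.000927, edgeR adjusted p = 0.0173). It was called with any 1 library left out (2.63 to 3.26) and rests on 81 reads in all.

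Cxcl13, which draws B cells into lymphoid tissue through Cxcr5, was the only chemokine gene called lower. It had 37.1, 20.0 and 46.3 normalized counts in Control and 7.96, 3.84 and 8.51 in TfR1KO libraries, without overlap. The difference was 4.99-fold (log2 fold change -2.32, SE 0.64, DESeq2 adjusted p = 0.00405, edgeR adjusted p = 0.0395). The call was lost without Control replicate 1 (-2.27, adjusted p = 0.0723) or Control replicate 3 (-2.06, adjusted p = 0.0639), and with both libraries that stood apart left out (-2.18, adjusted p = 0.0943). Cxcr5 had a log2 fold change of 0.10 (95% interval -0.97 to 1.18). B cell markers summed to 117, 109 and 195 normalized counts in Control and 116, 60.1 and 89.9 in TfR1KO libraries, with 1 of 5 called lower by DESeq2 (Ms4a1, which edgeR did not test). Their part in the Cxcl13 result was not tested.

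The other homing ligands did not pass. Ccl28 and Ccl27a, ligands of Ccr10 made by epithelia, had log2 fold changes of 1.09 (95% interval 0.09 to 2.09, adjusted p = 0.137) and -0.13 (-0.68 to 0.41), and Ccr10 had -0.14. Ccl28 did not overlap between groups, with 14.8 to 26.4 normalized counts in Control and 28.8 to 66.5 in TfR1KO libraries. Ccl25, which guides T cells through Ccr9, had 0.63 (-0.07 to 1.34), and Ccr9 had 32 reads. Ccr7, the lymph node homing receptor, had 0.12 (-1.5 to 1.74), and its ligands Ccl19, Ccl21a, Ccl21b and Ccl21c had 0 reads.

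Of the 54 genes 20 had 1 to 59 reads and 6 had none. Beyond those given above, the ligands below the minimum were Ccl22 with 59 reads, Ccl17 with 55, Ccl3 with 51, Ccl20 with 45, Ccl8 with 17 and Ccl1 with 4. The receptors were Ccr3 with 22, Ccr4 with 12, Ccr8 with 11, Ccr6 with 6 and Ccr1l1 with 4. Ccl26 and Ccl27b also had 0 reads. Ccl21a, Ccl21b and Ccl21c, and Ccl27a and Ccl27b, are near-identical copies, and counting only uniquely aligned reads lowers their counts. Ccl20, the ligand of Ccr6, passed the DESeq2 threshold below the minimum (adjusted p = 0.018), with 1, 1 and 0 reads in Control and 31, 3 and 9 in TfR1KO libraries; it too was singled out after its values were seen. The Ccl20 call held in 2 of 6 fits with 1 library left out. It was lost without Control replicate 1, 2 or 3 (adjusted p = 0.0927, 0.0815 and 0.0578), without TfR1KO replicate 1 its mean count was too low for an adjusted p, and edgeR did not test it.

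Many chemokine genes lie in clusters, and calls differed between them. In build mm9 (NCBIM37) the ELR genes Cxcl5, Cxcl3, Cxcl15, Cxcl1 and Cxcl2 span chr5:91188325-91334935, and both of those with enough reads were higher. Cxcl9, Cxcl10 and Cxcl11 span chr5:92750357-92794511, with 1 of 1 higher. Ccl5, Ccl9, Ccl6, Ccl3 and Ccl4 span chr11:83339280-83478185, with 1 of 4 higher. Ccl2, Ccl7, Ccl11, Ccl12, Ccl8 and Ccl1 span chr11:81849073-82119192, with 0 of 4. The counts are too small for a comparison between clusters.

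Chemokines, receptors and related genes whose symbols fall outside the rule, Cmtm3, Cmtm6 and Rarres2 among the related ones, gave 0 higher and 1 lower of 14 tested by DESeq2. At an unadjusted p under 0.05 DESeq2 gave 0 higher and 5 lower, and edgeR called 0 at its adjusted p. Rarres2, the chemerin ligand that attracts macrophages and dendritic cells, fell by 1.15 on the log2 scale (adjusted p = 0.0443, edgeR adjusted p = 0.138). Fractalkine (Cx3cl1) and its receptor Cx3cr1 had log2 fold changes of 0.60 and 0.97 (adjusted p = 0.29 and 0.395). Of 25 genes for signalling downstream of chemokine receptors, 3 were higher and 1 lower by DESeq2, and edgeR called 1 higher and 0 lower (5 and 2 at its unadjusted p under 0.05). Rgs1, which shortens G protein signals in leukocytes, had 3.30, 1.82 and 3.23 normalized counts in Control and 118, 205 and 48.2 in TfR1KO libraries (log2 fold change 5.47, DESeq2 adjusted p = 1.54e-11, edgeR adjusted p = 0.00782). Vav1 and Pik3r5, leukocyte relays to Rac and phosphoinositide signals, had 1.19 and 1.21 (edgeR adjusted p = 0.0708 and 0.0958), and the G protein subunit Gng2 had -1.54 (0.0779) with its highest value in Control replicate 3.

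Of 21 tested cytokines and genes of the NF-kappaB and interferon pathways upstream of chemokine transcription, inhibitors included, 4 were higher and 0 lower by DESeq2, and edgeR called 3 of these. At an unadjusted p under 0.05 DESeq2 gave 11 higher and 0 lower, and edgeR 9 and 0. No share of all genes at that p was computed, so these counts have no background. Relb, Nfkb2 and Myd88 were higher at a DESeq2 adjusted p under 0.05 but under 2-fold (log2 fold change 0.88, 0.74 and 0.46). Their edgeR adjusted p was 0.0445, 0.0576 and 0.0963. The cytokine Il1b had 9.07, 7.27 and 18.3 normalized counts in Control and 120, 56.3 and 42.6 in TfR1KO libraries (log2 fold change 2.68, edgeR adjusted p = 0.038). Nfkbia and Tnfaip3, inhibitors that NF-kappaB itself induces, had 1.16 and 1.12 (edgeR adjusted p = 0.0385 and 0.0314) and did not overlap between groups. Irf7 was the fourth, with the single high library given above (3.26, edgeR adjusted p = 0.108). Tnf and Il6 had 38 and 34 reads, and Il17a had 0.

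T and NK cell markers gave 0 of 8 tested by DESeq2 (1 higher and 1 lower at an unadjusted p under 0.05), and dendritic cell markers 0 of 8 (0 at an unadjusted p). Mast cell and eosinophil markers gave 0 of 6 (1 lower) and endothelial markers 0 of 7 (1 higher), and edgeR also called 0 in each list. Of 12 kidney epithelium markers 5 were lower and 1 was higher, with Umod, Slc12a1 and Lrp2 the most abundant that fell and Aqp2 the 1 that rose, and edgeR called 3 lower and 1 higher.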

How the data were processed

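Poly-A RNA of 6 kidneys (3 Control, 3 TfR1KO) was sequenced from single ends. Per the labels and methods, the authors used CASAVA 1.8.2, Trimmomatic and TopHat2 2.0.11 (mm9), kept reads that aligned to a single place, and the deposited values are HTSeq counts of reads per gene, not normalized. The annotation and strand setting are not given in the sources used here, so reads of overlapping genes cannot be told apart. The labels call the samples biological replicates; p-values measure the spread between these samples. Groups came from the labels.

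All genes were fitted with DESeq2 1.42.0 in R 4.3.3 (Wald test, median-ratio size factors, Benjamini-Hochberg adjustment over 16509 genes, lowest mean count tested 3.51), called at an adjusted p under 0.05 and 2-fold, the study's tool and thresholds. The study reported fewer genes in each direction at these thresholds, and the reason was not tested. 29 genes got no p-value after outlier filtering. Intervals are 95% Wald intervals. edgeR 4.0.16 and limma 3.58.1 (voom) were alternatives, with other size factors, filters, read minimums of 30 and 120, a replicate block and each library left out. Leaving out 2 libraries together was added after seeing the data. The code was tested on simulated data. The genes, lists and alternatives were chosen with earlier results of these data known. Of the 28 genes with 60 or more reads 27 are named, and the other is counted but not reported here; values per library are given for called genes, for the 3 most abundant ligands and receptors per exon length, and for others where single libraries stood apart, which were chosen after their values were seen. Up to 4 called genes of each other list are named by abundance, plus some uncalled genes of known role chosen afterwards. Exon lengths and mm9 positions came from GENCODE by symbol (53 of 54 genes; not Ccl28), and promoters from RefSeq.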

Additional observations from a re-analysis of the deposited data

How the results depend on the processing

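The 3 libraries per group and low counts limit these results: most of the chemokine genes had few reads. Ligands called higher numbered 2 by edgeR and 2 by limma-voom, beside 5 by DESeq2. Receptors called higher numbered 0 by edgeR, by limma-voom, with upper-quartile and with total-count size factors, beside 1. Over all genes, edgeR called 380 higher and 353 lower, limma-voom 365 and 372, and DESeq2 without the fold threshold 1277 and 1186, beside 728 and 736. Why the tools differed was not tested. The ligands called higher numbered 7 at a minimum of 30 reads and 4 at 120 reads.

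With 1 library left out, genes called lower ranged from 498 to 1146 (the highest without TfR1KO replicate 1), ligands called lower from 0 to 3, the ligand median from -0.13 to 1.21 and receptors called higher from 0 to 1. Log2 fold changes that crossed 0 ranged from -0.76 to 1.31 for Ccl11, -2.26 to 1.72 for Ccl12, -0.09 to 1.8 for Ccl2, -0.28 to 0.00 for Ccl27a, -0.53 to 3.04 for Ccl4, -0.25 to 1.07 for Ccl6, -1.68 to 2.96 for Ccl7, -0.55 to 0.23 for Ccr10, -1.20 to 0.17 for Ccr2, -0.45 to 0.63 for Ccr7 and -0.11 to 0.43 for Cxcr5, and none of these genes was called. With both libraries that stood apart left out, signs turned for Ccl11 (0.76), Ccl12 (-1.42), Ccl7 (-0.64) and Cxcr5 (-0.02). In limma-voom they turned for Ccl11 (0.35) and Ccl12 (-0.51).

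The replicate numbers share nothing that the labels state, and same-numbered libraries did not deviate together (correlations of -0.04, 0.05 and 0.09 over 15303 genes). With the number as a replicate block 5 ligands were higher and 2 lower (Cxcl13 and Cxcl14), and 1 receptor was higher. Under this block the signs turned for Ccl11 (0.28), Ccl12 (-0.92) and Ccr7 (-0.04).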
